A study of Mus musculus with 20 samples.

Results

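Endothelial cells from the hearts of mice aged 24 months were compared with those from mice aged 3 months. The comparison took every run whose labels name heart as the tissue, which was 7 of the 20 runs of the series, and used all genes of the heart count table. These runs made 6 of the 18 libraries, 3 at each age, because 2 of the 4 young runs were lanes of a single library and were summed. The other runs held endothelium of brain and kidney at the same ages and served here only to show where the heart differed from them. All groups were wild type mice of the strain C57BL/6. Within heart, age was the only factor in the labels that set the groups apart, and the labels name no drug, diet or altered allele. Per the labels, minced organs were digested with collagenase II and a DNase, and magnetic beads pulled down cells that carry CD31, the product of Pecam1 on endothelial surfaces. Sorting then kept CD31+ cells that lacked GP38 and CD45. The product of Pdpn is GP38, found on fibroblasts and on lymphatic endothelium, and the product of Ptprc is CD45, found on leukocytes. The sort pools arteries, capillaries, veins and endocardium, so that fewer cells of a type and less RNA per cell cannot be told apart in these bulk libraries. Whether each library of an age came from its own animal is not in the labels, and every p-value below measures only the spread between libraries.

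Capillary endothelium of the heart takes fatty acids from the blood and hands them to cardiomyocytes, the muscle cells that burn them. It lies on a basement membrane of type IV collagen and laminin that it builds together with pericytes, the contractile cells wrapped around capillaries, and it holds receptors through which circulating hormones reach the heart. Endothelial cells can also carry major histocompatibility complex (MHC) molecules, which display peptides to T cells. In general, ageing of the heart is known to bring stiffer matrix, fewer capillaries and more inflammation.

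Each library held 38338152 to 87598835 counts, and 15002 of the 46078 genes had enough counts in heart to be tested. Levels are given in CPM, read counts scaled to library size after TMM normalization, in the order of libraries 1, 2 and 3, and the 3 values before the word against are those of the young libraries, the 3 after it those of the old. A fold change is the log2 ratio of 24 over 3 months with its standard error, and ± after a level is the standard deviation with n = 3. Pecam1 was at 1880.2, 1536 and 1519.8 CPM in the young and 1721, 1716 and 1783 CPM in the old libraries. Cdh5, the cadherin of endothelial junctions, was at 499, 476 and 512 against 493, 515 and 509.8 CPM. Pdpn was at 0 in all young libraries and at 1.00, 0 and 0.414 CPM in the old ones, and Ptprc at 5.29, 0 and 2.95 against 0.0263, 5.94 and 0.0244 CPM, so no library held more than 5.94 CPM of either gene of the negative sort. Summed over 16 pan-endothelial genes the level was 14089 to 16761 CPM in young and 15343 to 16082 CPM in old libraries. Young library 1 stood apart from the others on the first principal component, which held 29.8% of the variance. It had the fewest counts of the mitochondrial genome, with a sum of 2688 CPM where the other libraries had 5824 to 9884, and the most of the heat shock genes, with 12422 CPM where the others had 4344 to 6312. The plot of list medians shows most of the lists described with and without it.

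No gene passed an adjusted p of 0.05 in the edgeR quasi-likelihood test of the 6 heart libraries, which is 0.0% of the 15002 tested. The lowest adjusted p was 0.448, shared by 32 genes. At an unadjusted p under 0.05 there were 843 genes, 5.62% of those tested, and DESeq2 called 170 genes (1.13%). The old libraries lay wholly above the young ones for 1010 genes (6.73%) and wholly below them for 810 genes (5.4%), together 12.1%, the shares against which counts of list members without overlap were read. The median log2 fold change of all genes was 0.01, with 51.6% of genes above 0 and 48.4% below. In a simulation drawn from the means and library sizes of these data, the edgeR test recovered 11% of 2-fold and 44% of 4-fold changes, so a gene that missed the threshold here may still differ. When the spread was estimated over all 6 groups of the series, 8 of 18369 genes (0.0436%) passed for heart, and 7 of them rose and 1 fell.

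The genes that passed in the fit of all groups were a pair of hormone receptors, Lepr and Pth1r, an orphan receptor, Gpr160, the extracellular proteoglycan Spock2, the cytoskeletal linker Ppl (periplakin), the melanosome transport adaptor Mlph, the acetyltransferase relative Nat8f1, and the membrane-bound collagenase Mmp14. Levels in this paragraph and the next carry the scaling of that fit, so that heart can be set beside brain and kidney. Only the neighbouring genes Leprot, Myl3 and Tprkb carry the scaling of the fit of heart alone. Lepr, the receptor for the fat cell hormone leptin, was at 0.0814, 0.025 and 0.0755 CPM in young hearts, which is 11 counts over the 3 libraries, and at 2.51, 4.39 and 3.66 CPM, or 453 counts, in old ones. Its log2 fold change was 5.73 ± 0.44 (adjusted p = 2.84e-05, edgeR fit of all groups; 0.448 in the edgeR fit of heart alone). The lowest old library thus held about 30.8 times the CPM of the highest young one. In brain endothelium Lepr was abundant at both ages, at 53.4 ± 12.7 and 67.6 ± 17.2 CPM, and kidney gave 77.1 ± 18.3 and 100.2 ± 26.9 CPM. The age effect in heart differed from that in brain by 5.39 ± 0.53 log2 units (adjusted p = 0.000849) and from that in kidney by 5.35 ± 0.53 (adjusted p = 0.000927, edgeR for both). It was the single gene to pass in the kidney comparison, 0.00544% of 18369, while 11 genes (0.0599%) passed in the brain comparison. DESeq2 called 195 genes (1.06%) in the kidney comparison and 278 (1.51%) in the brain comparison. Every old heart library lay below every brain and kidney library. Lepr lies on the plus strand at chr4:101717404-101815352 (mm10). Leprot, the next gene upstream on that strand, was at 213, 258 and 235 CPM in young and 216, 237 and 251 CPM in old hearts, and its ages overlapped.

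Pth1r, the receptor for parathyroid hormone and its related peptide, was at 33.4, 27.8 and 53.5 CPM in young and 207, 129.6 and 168 CPM in old hearts, with no overlap. It rose by 2.14 ± 0.29 log2 units (adjusted p = 0.00956, edgeR fit of all groups), where brain was at -0.02 and kidney at -0.32. The differences from brain and kidney had adjusted p = 0.0797 and 0.0607 by edgeR and did not pass. The Pth1r gene (chr9:110722085-110747145, minus strand) overlaps Myl3 on the other strand. Myl3, a myosin light chain of heart muscle, was at 13.5, 8.10 and 13.9 against 12.1, 6.14 and 11.6 CPM, far less than Pth1r. Gpr160 went from 20.4, 14.9 and 17.7 CPM to 79.5, 47.1 and 63.9 CPM, a rise of 1.85 ± 0.20 (adjusted p = 0.00164). Old hearts had 63.5 ± 16.2 CPM and old brain 53.4 ± 9.07 CPM, and the age effect in heart differed from that in brain by 1.99 ± 0.28 (adjusted p = 0.0142, edgeR). Spock2, which brain endothelium held at 1226 ± 124 CPM when young, was at 6.32, 8.36 and 5.21 CPM in young and 20.9, 16.8 and 22.5 CPM in old hearts and rose by 1.60 ± 0.21 (adjusted p = 0.00956). Mmp14, which cuts fibrillar collagen at the cell surface and activates other matrix proteases, went the other way. It stood at 73.7, 88.2 and 47.2 CPM in young and 16.5, 22.3 and 20.2 CPM in old hearts and fell by 1.83 ± 0.26 log2 units (adjusted p = 0.0105, edgeR fit of all groups). The 3 remaining genes were nearly silent in young hearts. Mlph had 1 count in young and 521 in old hearts, Nat8f1 had 1 and 110, and Ppl had 18 and 1198, with adjusted p = 0.0105 for each in the fit of all groups. For Nat8f1, which has close relatives in the same gene cluster, the authors' counting could split reads between copies. It also overlaps Tprkb, a gene of the other strand that was at 16.1, 26.4 and 11.5 against 14, 18.2 and 16.1 CPM, and whether counting used strand is not stated. In brain, Ppl was at 1.48 ± 0.997 CPM in young and 17.5 ± 3.92 CPM in old libraries, and its adjusted p was 0.0946 by edgeR, while kidney held 26.5 ± 2.36 and 22.3 ± 0.785 CPM. Leaving out young library 1 ended 6 of the 8 calls. Without it Lepr (adjusted p = 0.000564) and Gpr160 (adjusted p = 0.00726) passed, the others having adjusted p of 0.0622 to 0.0872 by edgeR, and Mmp14 also missed it without old library 1 (adjusted p = 0.0558).

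**Figure D1:**
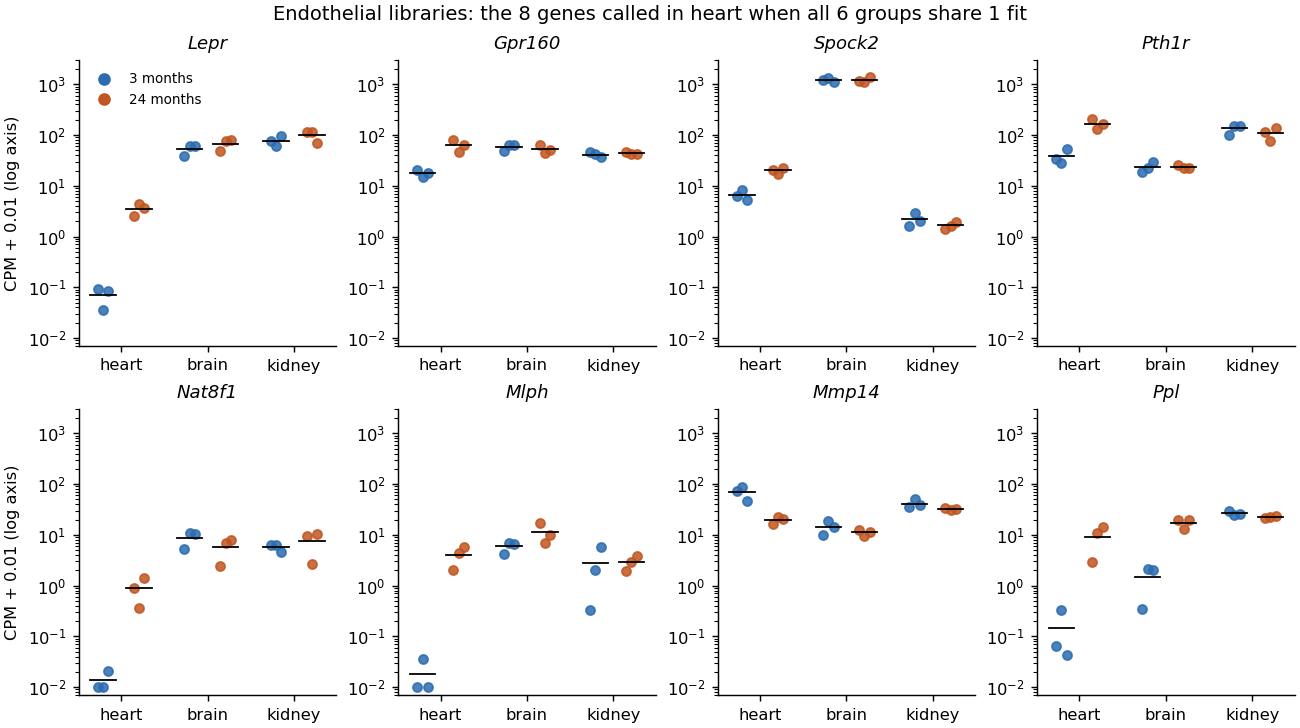
CPM + 0.01 on a log axis for the 8 genes that passed in heart when all 6 groups shared a fit, with a point per library, blue at 3 months and orange at 24 months, and a bar at the mean. In heart the ages do not overlap for any of the 8 genes, and Lepr reaches at most 4.39 CPM there while brain and kidney libraries hold 38.8 to 116.3 CPM.

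Among 33 hormone and metabolic receptors, 22 were tested, of which 16 had a fold change above 0 and 6 below it. In 5 of the 22 the old libraries lay wholly above the young ones and in 0 wholly below, where 6.73% and 5.4% of all genes did so. The list's median was 0.22 against 0.01 for all genes, and it was 0.46 without young library 2 and 0.14 without old library 3. Besides Lepr and Pth1r these included the mineralocorticoid receptor and an adiponectin receptor. Nr3c2, the mineralocorticoid receptor through which aldosterone acts, was at 15, 11.1 and 13.4 CPM in young and 27.9, 35.3 and 34.5 CPM in old libraries, a log2 fold change of 1.31 ± 0.22 (unadjusted p = 0.000576). Its partner for cortisol-like hormones, the glucocorticoid receptor Nr3c1, was at 233, 274 and 236 against 181, 302 and 213 CPM, so the old libraries lay on both sides of the young ones. Adipor2 was at 27.6, 23 and 20.7 against 50.8, 32.4 and 35.9 CPM (0.74 ± 0.24), whereas the more abundant Adipor1 was at 698, 645 and 652 against 734, 704 and 647 CPM. Insr, the insulin receptor, overlapped narrowly, with 6.92, 8.79 and 13.2 against 25.9, 18 and 12.7 CPM (0.97 ± 0.38). In all, 17 of the 22 overlapped. Like the other lists, this one was chosen with earlier results of these data known. It also holds the called genes Lepr and Pth1r, so its counts describe the list and do not test it. Of the 11 untested receptors, Esr2, Adrb3, Agtr2 and Ghsr had 0 counts in all heart libraries.

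**Figure D2:**
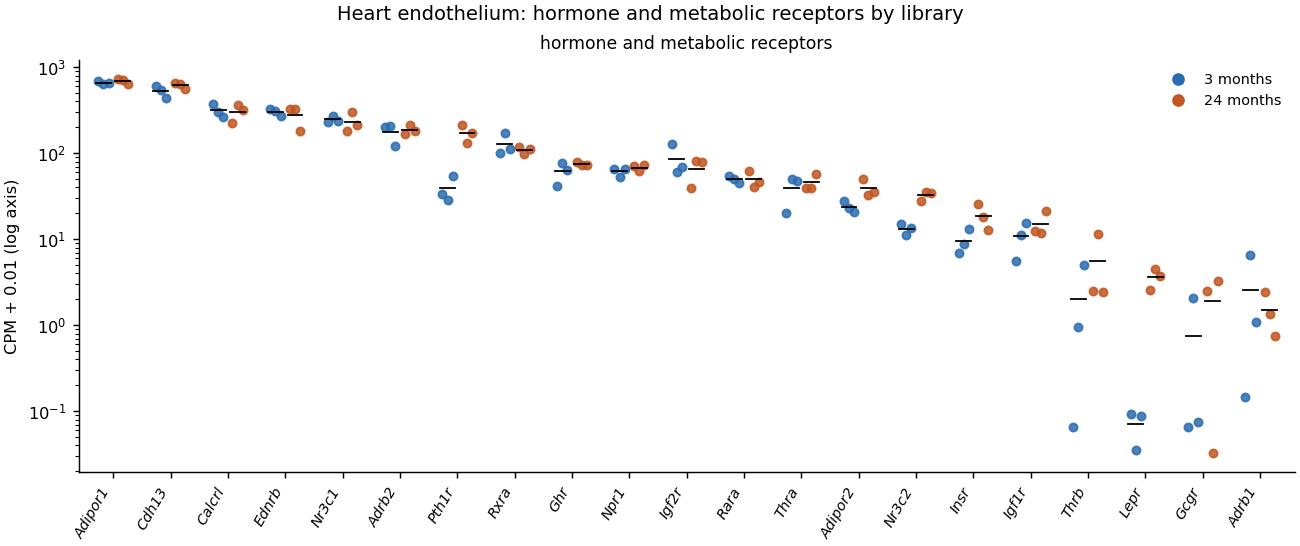
CPM + 0.01 on a log axis for 21 of the 22 tested hormone and metabolic receptors in heart, ordered by their mean at 24 months, with a point per library (blue young, orange old) and a bar at the mean. Of the genes plotted, Lepr, Pth1r, Nr3c2 and Adipor2 have ages that do not overlap.

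MHC class II molecules present peptides to CD4+ T cells and are assembled from an alpha and a beta chain around the invariant chain Cd74. Their genes are switched on by Ciita, a coactivator that sits on a shared promoter module, the X and Y boxes, through the RFX and NF-Y factors. The list of class II genes held Ciita and 9 genes of the class II chains and their loading factors. All 10 had a fold change above 0, with a median of 1.27. In 6 of them the old libraries lay wholly above the young ones, where 6.73% of all genes did so. Of the 10 genes, 7 had a promoter entry in the RefSeq table (GRCm38.p6), and the promoters of H2-Ab1, Cd74 and Ciita were not searched. The stretch that holds the module is shown for the 5 genes in which it was found, because it is what these genes share beyond their place in the MHC region on chromosome 17. Capitals mark the letters CTNNNAAC of the X box and TGATTGG of the Y box, on the strand of the gene, 5′ to 3′, and all bases lie before the start of the gene.
H2-DMb2: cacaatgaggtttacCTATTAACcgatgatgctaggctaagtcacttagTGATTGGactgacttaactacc
H2-DMb1: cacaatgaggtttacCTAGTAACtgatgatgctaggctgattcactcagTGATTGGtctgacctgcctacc
H2-Ob: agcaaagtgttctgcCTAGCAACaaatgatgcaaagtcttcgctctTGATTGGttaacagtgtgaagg
H2-Aa: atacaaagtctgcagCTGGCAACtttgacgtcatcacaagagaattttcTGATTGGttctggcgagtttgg
H2-Eb1: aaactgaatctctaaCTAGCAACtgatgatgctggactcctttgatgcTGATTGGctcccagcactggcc
The windows lie at chr17:34145108-34145178 (H2-DMb2, plus strand), chr17:34153079-34153149 (H2-DMb1, plus strand), chr17:34238800-34238867 (H2-Ob, plus strand), chr17:34287852-34287922 (H2-Aa, minus strand), chr17:34305758-34305827 (H2-Eb1, plus strand). Both motifs, chosen with these sequences in view, were searched on both strands of 32851 RefSeq windows of 300 bases, and they do not overlap each other. CTNNNAAC was in 41.1% and TGATTGG in 7.82% of windows, and both in this order, at most 60 bases apart, in 0.402%. H2-Oa held TGATTGG alone, and H2-DMa held neither. A match describes these letters and is no evidence that a factor bound there.

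Ciita itself had 1 count over the 3 young libraries and 1.74, 3.67 and 1.95 CPM, or 311 counts, in the old ones (unadjusted p = 0.00034). The beta chain H2-Ab1 was at 25.9, 33.5 and 20.4 CPM in young and 51.7, 105 and 52.6 CPM in old libraries (1.39 ± 0.34). H2-Eb1 was at 8.24, 16.8 and 7.89 against 24.1, 45.6 and 25.4 CPM (1.53 ± 0.41). The alpha chain H2-Aa was at 12.8, 31.8 and 8.95 against 33.3, 48.1 and 37.3 CPM (1.15 ± 0.47). In each of these genes the highest library was old library 2, and the ages did not overlap. H2-DMb1, a chain of the peptide loading factor, was at 0, 5.43 and 1.55 against 10.4, 8.90 and 9.40 CPM and did not overlap either. Its near-identical neighbour H2-DMb2 was at 0.661, 0.384 and 2.07 against 0.764, 2.49 and 2.61 CPM and did, and reads of this pair may have been split between them. H2-Ob, which carries the module too, was at 5.32, 2.56 and 6.72 against 6.90, 6.37 and 3.02 CPM. Cd74 was the most abundant, with 85.1, 137 and 56.9 against 134, 309.7 and 154 CPM, and its old library 1 lay below young library 2.

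The other regulators of class II genes lay on both sides of 0. Apart from Ciita, 8 of the 14 tested regulators were above and 6 below 0, and the median of all 15 was 0.10. Rfx5, Rfxap and Rfxank, which make up the RFX factor, had fold changes of -0.20, 0.15 and 0.05. Creb1, a factor that binds class II promoters, had the lowest value of the list, -0.54 ± 0.23 (unadjusted p = 0.0497), with 101, 127 and 74.3 against 72.9, 57.3 and 77.2 CPM and a narrow overlap. Jak1, a kinase of interferon receptors, was at 515, 393 and 353 against 265, 353 and 348 CPM (-0.39 ± 0.19). It was lower without overlap, the ages lying only just apart. The interferon gamma receptor chain Ifngr2 was at -0.27 ± 0.22. Irf1, through which interferon gamma acts on Ciita, was at -0.16 ± 0.24, and the ages of both overlapped. Of 34 interferon response genes tested, 10 were above and 24 below 0. Their median was -0.22 (-0.15 without young library 1 and -0.14 without old library 3). Of the 34, 0 lay wholly above and 2 wholly below (Stat2 and Gbp7), where 6.73% and 5.4% of all genes did so. Class I genes were 15 above and 2 below 0 of 17, with a median of 0.26 (0.16 without young library 1). H2-Q7 was at 52.6, 95 and 64 against 116, 117 and 116 CPM. H2-Q6 was at 167, 293 and 162 against 317, 349 and 310.1 CPM, and neither overlapped, although reads of these close copies may be shared. The third class I gene without overlap, also higher, was Tapbp, a peptide loading chaperone. Of the 17, 3 were thus higher and 0 lower without overlap, where 6.73% and 5.4% of all genes were so.

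Dendritic cells, macrophages and B cells also express class II, so leukocyte genes were read beside these values. Of 18 leukocyte genes 11 were tested, with 9 above and 2 below 0 and a median of 0.45. Of the 11, 0 were without overlap, where 12.1% of all genes were so. Their summed level was 57.4 to 69.5 CPM in young libraries and 44.4, 121 and 60.2 CPM in old libraries 1 to 3. Nkg7 had 0 counts in all 6 libraries, and Cd3e, Itgam, S100a8 and S100a9 were at 0 in 4, 5, 4 and 4 of them. The B cell gene Cd79a was highest in old library 2, at 11 CPM, the library that was also highest for class II. Without old library 2 the 10 class II genes were all above 0, with a median of 0.98. The leukocyte list was then 4 above and 7 below 0. The part of leukocytes in the class II levels was not tested, and leaving out a library cannot show it.

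**Figure D3:**
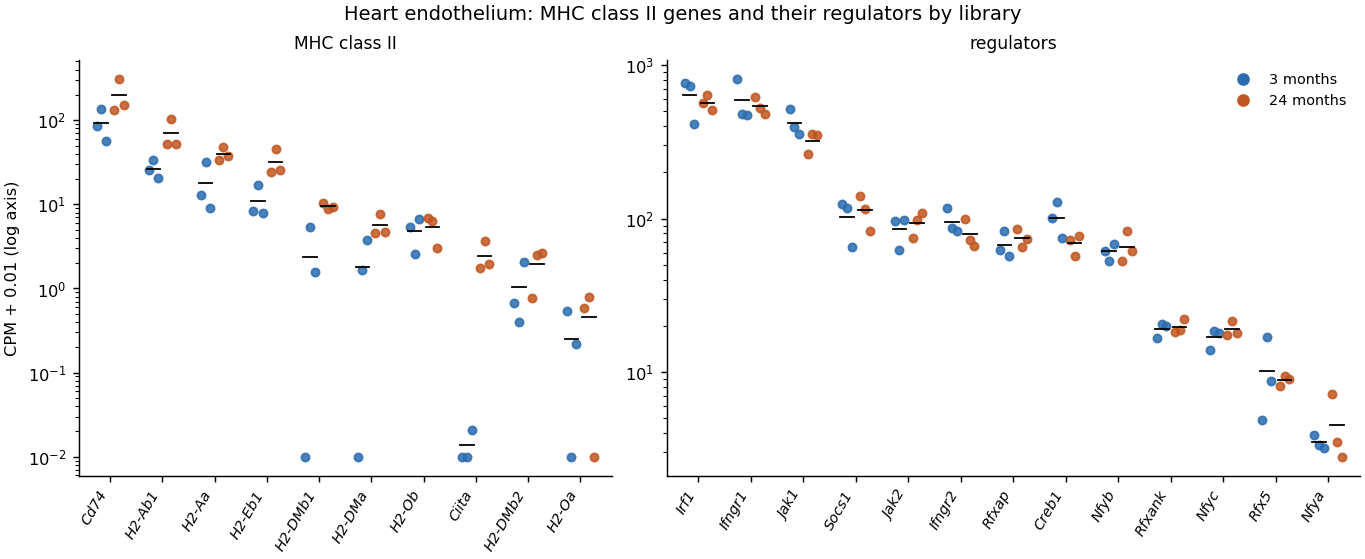
CPM + 0.01 on a log axis for Ciita and the 9 other class II genes (left) and 13 of the other 14 regulators (right) in heart, with a point per library (blue young, orange old) and a bar at the mean. On the left the 6 genes H2-Ab1, H2-Aa, H2-Eb1, H2-DMb1, H2-DMa and Ciita show no overlap between the ages. On the right only Jak1 shows none, with the old libraries lower and the ages only just apart.

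Of the other genes with the lowest p and no overlap, those higher in old hearts were Klra9, Bmper, Grhl3 and Serpina1e. Klra9, a gene of the Ly49 receptor cluster of natural killer cells, was at 6.58, 5.23 and 11.3 CPM in young and 42.2, 70.3 and 44.4 CPM in old libraries (2.75 ± 0.37). Serpina1e, a copy of alpha-1 antitrypsin, was at 0.992, 1.13 and 3.72 against 29.6, 23.8 and 19.9 CPM. Both belong to clusters of close copies between which reads could be split. Grhl3, an epithelial transcription factor, had 1 count in young and 251 in old libraries. Those lower in old hearts, besides Mmp14 and Col18a1, were Synj1, Atp2a2, Errfi1, Cachd1, Drd1 and Zfp458. Synj1, a phosphatase of synaptic and endocytic vesicles, was at 65.9, 85 and 70.6 against 29.9, 33.1 and 29.5 CPM (-1.26 ± 0.17). Errfi1, a brake on the epidermal growth factor receptor, was at 437, 411 and 354 against 259, 208 and 219 CPM. Cachd1, which acts with calcium channels, was at 46.1, 33.7 and 25.3 against 7.85, 10.9 and 13.2 CPM. The dopamine receptor gene Drd1 had 477 counts in young and 1 in old libraries, and the zinc finger gene Zfp458 had 372 and 2. Several of these genes also overlap others: Ciita overlaps Dexi, Col18a1 overlaps Slc19a1, Errfi1 overlaps 1700045H11Rik, and Synj1, Atp2a2 and Cachd1 overlap predicted genes. Atp2a2, the calcium pump of the sarcoplasmic reticulum, was at 381, 372 and 393 against 211, 224 and 260.1 CPM (-0.72 ± 0.13). It is also a marker of cardiomyocytes, and of 13 tested markers of these cells 3 were above and 10 below 0 (median -0.25). That median ran from -0.11 without old library 2 to -0.47 without young library 2. The atrial peptide Nppa was at or near 0 in every library and the contractile genes Tnnt2 and Myh6 at no more than 36.7 and 9.94 CPM. The part of muscle RNA in the Atp2a2 levels was not tested.

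TGF-beta and BMP ligands steer endothelial growth and quiescence, and BMP signals reach the nucleus through Smad proteins to induce Id1 and Smad6. Of 37 genes of these pathways 26 were above and 11 below 0 (median 0.09). The ages did not overlap for 4 higher genes and 1 lower gene of the 37, where 6.73% and 5.4% of all genes did so. Bmp6, an endothelial ligand, was at 233, 197 and 242 CPM in young and 402, 357 and 364 CPM in old libraries (0.74 ± 0.14, unadjusted p = 0.000904). Bmper, which binds BMPs, had 1 count in young and 279 counts in old hearts, at 2.50, 2.89 and 1.32 CPM. Fst (follistatin), which traps activins, had 0 counts in young and 115 in old hearts, which is at least 51.4-fold higher when the young group is set to the floor of 3 counts that a 0 allows, for counting error only. Acvr2b, an activin receptor, was at 18.9, 25.6 and 26.5 against 29.7, 28.4 and 29.3 CPM, while the ligand Tgfb3 was lower, at 71.6, 66.5 and 75.2 against 35.1, 35.5 and 48.6 CPM (-0.84 ± 0.19). Among target genes, Smad6 was at 207, 178 and 173 against 322, 203 and 250.4 CPM and Id1 at 570.2, 517 and 568 against 1000.5, 530.1 and 642 CPM. Both were highest in old library 1, and the ages overlapped.

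Pericytes share the basement membrane with capillary endothelium and are held there by endothelial PDGF-B acting on Pdgfrb. Every one of the 14 pericyte and smooth muscle genes tested had a fold change below 0 (median -0.86). In 6 of them the old libraries lay wholly below the young ones, where 5.4% of all genes did so. Without young library 1 all 14 were below 0 and the median was -1.09, while without young library 3 the median was -0.55. Vtn (vitronectin), a pericyte-derived matrix protein, was at 41.1, 31.2 and 47.1 CPM in young and 5.24, 13 and 22.4 CPM in old libraries (-1.55 ± 0.49). Higd1b, a mitochondrial protein typical of pericytes, was at 16.1, 17.8 and 19.7 against 12.1, 8.62 and 13 CPM. Notch3, the Notch receptor of mural cells, was at 88.6, 88.7 and 201 against 60.3, 45.1 and 81.9 CPM. Its target Heyl was at 60.4, 44.7 and 72.4 against 38.4, 26.5 and 27.3 CPM (-0.95 ± 0.25). Gucy1a1, the nitric oxide sensor of smooth muscle and pericytes, was at 179, 173 and 248 against 50.9, 76.6 and 149 CPM (-1.12 ± 0.39). The old libraries lay wholly below the young ones in all 5, but Heyl and Gucy1a1 are not on the mural list. Heyl is of the Notch list, which was 8 above and 10 below 0 of 18 (median -0.01, or -0.02 without young library 1). Of the Notch genes 0 were wholly higher and 3 wholly lower, where 6.73% and 5.4% of all genes were so. Gucy1a1 is of the list of vessel tone and shear response, which was 13 above and 19 below 0 of 32. On the mural list, by contrast, the contractile gene Tagln overlapped, at 139, 197 and 325 against 149.6, 118 and 162 CPM. The endothelial ligand Pdgfb overlapped, at 226, 196 and 244 against 304, 229 and 231 CPM. The sort kept CD31+ cells, and how much mural RNA came with them in each library was not measured.

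The basement membrane list had 20 of 23 tested genes below 0 and a median of -0.45. In 8 of them the ages did not overlap, all lower in old hearts, where 5.4% of all genes were so. Without young library 1 the list was 19 below and 4 above, with a median of -0.32, and without young library 3 the median was -0.71. Col18a1, whose C-terminal piece is endostatin, was at 235, 209.7 and 179 CPM in young and 76.2, 93.1 and 114 CPM in old libraries (-1.14 ± 0.19, unadjusted p = 0.000591). The type IV collagen chain Col4a2 was at 2914, 1935 and 1590.2 against 1370.3, 1198 and 1290.5 CPM. Sparc, a collagen-binding glycoprotein, was at 5375, 3891 and 3175 against 2827, 2632 and 2167 CPM. In both, young library 1 was the highest. Lamc1, the laminin gamma chain, was at 439.8, 297 and 218 against 153, 205 and 209 CPM. The cross-bridging nidogen Nid1 was at 556, 370.4 and 279.7 against 263, 261 and 249.7 CPM. Agrn (agrin), a heparan sulfate proteoglycan, was at 142, 133 and 144 against 92.7, 91.5 and 122 CPM. The ages did not overlap in any of these 6 genes. By contrast the main proteoglycan, Hspg2 (perlecan), was at 237, 244 and 244 against 219, 216 and 239 CPM (-0.11 ± 0.12), and its ages overlapped.

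Integrins tie endothelial cells to this matrix. Of 14 tested, 11 were below and 3 above 0 (median -0.42), and without young library 1 they were 10 and 4 (-0.26). Itga6, a laminin receptor chain, was at 794, 657 and 622 against 454, 609.9 and 495 CPM. Itgav, the vitronectin receptor chain, was at 81.2, 28.5 and 30.7 against 14.2, 16.9 and 28.1 CPM, and both were lower without overlap. Itgb5, which pairs with Itgav, was the exception, at 109, 105 and 116 against 154, 175 and 166 CPM (0.59 ± 0.13), with every old library above every young one. Of the matrix enzymes, Mmp15, like Mmp14 a membrane-bound protease, was at 226, 167 and 143 against 125, 72.6 and 94.1 CPM (-0.88 ± 0.25). Adamts4, which cuts proteoglycans, was at 58.9, 33.6 and 26.8 against 11.7, 24.1 and 20.8 CPM. Mmp11 was at 3.66, 14.8 and 10.2 against 19.7, 15.8 and 29 CPM, so that it lay higher in old libraries and the other 2 lower, each without overlap. The enzyme list as a whole was 17 below and 11 above 0 (median -0.08), and without young library 1 it was 10 below and 18 above (0.19). P4ha1, which hydroxylates collagen, was at 714, 119 and 98.5 CPM in young and 158, 80.9 and 95.9 CPM in old libraries. The collagen chaperone Serpinh1 was at 2822, 1116 and 772 against 1146, 756 and 620.0 CPM, and young library 1 was the highest in both. The heat shock list had 11 of 14 genes below 0 (median -0.27) with all libraries, and 3 of 14 (0.10) without young library 1. The unfolded protein response list went from 17 of 20 below 0 (-0.24) to 6 of 20 (0.05).

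Genes of fibroblasts, which the sort meant to leave out, lay in both directions. Of 11 such genes 9 were tested, 6 below and 3 above 0 (median -1.09, or -0.67 without young library 3). Tcf21, the fibroblast transcription factor, was at 4.02, 8.91 and 5.29 against 0.79, 0.757 and 0.268 CPM. The actin-severing Gsn (gelsolin) was at 128, 137 and 209 against 57, 74.2 and 91.1 CPM, and both were lower in old libraries without overlap. The small leucine-rich proteoglycans Dcn and Lum lay the other way without overlap, Lum at 15, 12.3 and 4.37 against 20.3, 37.2 and 49.99 CPM. Outside the basement membrane, Fbln5, an elastic fibre protein of arteries, was at 598, 389.5 and 447 against 298, 228 and 344 CPM. Postn (periostin) was at 30.6, 39.99 and 19.3 against 15.6, 16.8 and 7.77 CPM. The collagen VI chain Col6a2 was at 24.2, 6.12 and 10.9 against 2.58, 4.79 and 2.73 CPM. All 3 were lower in old libraries without overlap. The list of fibrillar collagen and elastic fibre genes was 6 above and 13 below 0 of 19. Its median was -0.19, or -0.25 without young library 1. It had 2 higher and 4 lower genes without overlap, where 6.73% and 5.4% of all genes were so. Which cells these transcripts came from was not measured.

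**Figure D4:**
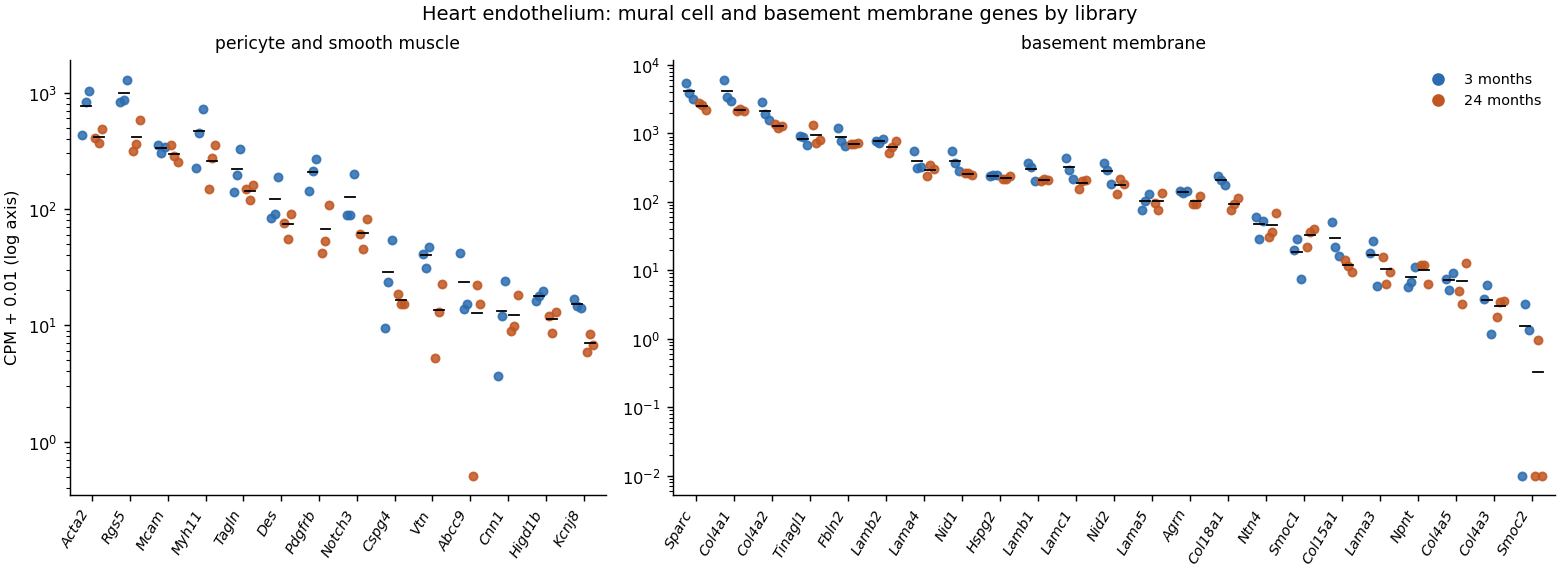
CPM + 0.01 on a log axis for the 14 pericyte and smooth muscle genes (left) and the 23 tested basement membrane genes (right) in heart, with a point per library (blue young, orange old) and a bar at the mean. All 14 means on the left are lower in old hearts, whereas on the right Tinagl1, Smoc1 and Npnt are higher and Hspg2 lies within a narrow band.

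Of 24 genes for fatty acid uptake and lipolysis tested, 15 were above and 9 below 0 (median 0.17, or 0.09 without young library 1 and 0.01 without old library 1). The ages of 1 of the 24 did not overlap, where 12.1% of all genes did not. That gene, Plin2, which coats lipid droplets, was at 147, 146 and 174 CPM in young and 293, 229 and 262 CPM in old libraries (0.75 ± 0.15, unadjusted p = 0.00164). Outside this list, Pdk4, a kinase that turns pyruvate away from oxidation and a common target of fatty acid sensing factors, was at 19.3, 5.61 and 8.92 against 40.5, 35.1 and 23.7 CPM (1.56 ± 0.47). Pdk4 was named here after its values were seen. It is of the glucocorticoid response list, which was 7 above and 7 below 0 of 14 (median 0.11). The fatty acid transporter Cd36 was at 8024, 6079.7 and 8078 against 9331, 7362 and 8424 CPM (0.18 ± 0.14). The carrier Fabp4 was at 3228, 3613 and 4965 against 5787, 4370.1 and 4339 CPM. Gpihbp1, the anchor of lipoprotein lipase on capillaries, was at 915, 802 and 1008 against 1637, 1040.4 and 914 CPM, and the ages of all 3 overlapped. Nuclear genes of oxidative phosphorylation were 18 above and 22 below 0 of 40 (median -0.01), and without young library 1, the one with the fewest mitochondrial counts, 2 above and 38 below (-0.14).

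Capillary markers were 9 above and 3 below 0 of 12 (median 0.19, or 0.12 without old library 1 and 0.31 without old library 2), and the clear exception was the apelin receptor. Aplnr, through which apelin drives angiogenesis and relaxes vessels, was at 1159, 948 and 773 CPM in young and 255, 580.2 and 429 CPM in old libraries (-1.19 ± 0.31, unadjusted p = 0.00578). Its ligand Apln was at 237, 177 and 104 against 94.8, 142 and 145 CPM and overlapped. Arterial genes were 7 above and 6 below 0 of 13 (median 0.0041), with 3 lower without overlap, where 5.4% of all genes were so. Without young library 1 they were 4 above and 9 below 0 (-0.02). The gap junction genes Gja4 and Gja5, which couple arterial endothelium, were among the 3 lower genes. Gja4 was at 83.2, 144 and 117 against 79.4, 60.2 and 75.3 CPM and Gja5 at 173, 142 and 149 against 96.9, 128 and 129 CPM. Endocardium lines the chambers, and of 7 tested endocardial genes 5 were above and 2 below 0 (median 0.53, or 0.86 without young library 1). Cytl1 was at 24, 48.8 and 17.2 against 84.7, 76.5 and 84.3 CPM (1.45 ± 0.37). Plvap, which forms the diaphragms of caveolae and fenestrae, was at 155, 159 and 84.1 against 225, 255 and 258 CPM (0.89 ± 0.25). Npr3, the natriuretic peptide clearance receptor, was at 25.1, 27.6 and 2.16 against 30.3, 40.03 and 42.4 CPM. All 3 were higher without overlap, and young library 3 was the lowest in each. Of the 7 endocardial genes, 3 were thus higher and 0 lower without overlap, where 6.73% and 5.4% of all genes were so. Vwf, von Willebrand factor, overlapped at 433, 237 and 256 against 385, 424 and 532 CPM (0.53 ± 0.26). Hapln1, a link protein of the hyaluronan matrix, lay the other way with the ages overlapping, at 14.3, 2.02 and 0.022 against 0.869, 0 and 0 CPM (-4.23 ± 2.49). How many endocardial cells each library held was not measured.

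The receptors of the VEGF family, which drive vessel growth, gave unlike values. Flt4 (VEGFR3) was at 197, 160.0 and 150.2 against 93.3, 133 and 116 CPM (-0.57 ± 0.19). The semaphorin receptor Plxnd1 was at 359, 325 and 331 against 222, 268 and 267 CPM (-0.43 ± 0.13), and both were lower without overlap. The main receptor Kdr (VEGFR2) was at 3286, 2066 and 2629 against 2021, 2461 and 2676 CPM. Flt1 was at 942, 634 and 703 against 1046, 868 and 828 CPM, and both overlapped. The list was 7 above and 13 below 0 of 20 (median -0.14), or 10 and 10 without young library 1. Guidance cues were 11 above and 17 below 0 of 28 (median -0.09). Of these, 5 were higher and 3 lower without overlap, where 6.73% and 5.4% of all genes were so. Ntn1 (netrin-1) was at 22.4, 20.4 and 31.1 against 40.8, 45.1 and 45.1 CPM (0.82 ± 0.21). Efnb1 (ephrin-B1) was at 145, 167 and 207 against 273, 217 and 275 CPM, higher like Ntn1 without overlap. The receptor Plxna1 was at 27.3, 35.3 and 25.9 against 20.9, 11 and 14.5 CPM, lower without overlap. Among 22 Wnt genes, 10 above and 12 below 0 (median -0.06; 11 and 11 without young library 1), the secreted amplifier Rspo1 was at 1.29, 0 and 1.47 CPM in young and 15, 10.3 and 9.89 CPM in old libraries. Wnt2 was at 1.63, 2.05 and 1.68 against 4.92, 3.32 and 6.82 CPM, and both were higher without overlap. The insulin-like growth factor axis was 7 above and 7 below 0 of 14 (median -0.01). Igf2 was at 22.6, 23.8 and 21 against 34.3, 29.3 and 31.3 CPM. The binding protein Igfbp6 was at 10.1, 11.1 and 1.56 against 20.6, 20.2 and 34.1 CPM, higher like Igf2 without overlap. Igfbp4 was at 165, 171 and 148 against 108, 112 and 142 CPM, lower without overlap.

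Of 32 genes of vessel tone and shear response, 13 were above and 19 below 0 (median -0.06), and without young library 1 the counts were 20 and 12 (0.03). Nos3, the endothelial nitric oxide synthase, was at 536, 453 and 444 against 478, 464 and 429 CPM (-0.06 ± 0.13). Edn1, the vasoconstrictor endothelin-1, was at 80.3, 71.2 and 59 against 65.6, 41.3 and 89.4 CPM (-0.10 ± 0.29), and both overlapped. Kcnj2, an inward rectifier potassium channel, was at 10.7, 27.7 and 25 against 8.61, 11.7 and 8.38 CPM (-1.14 ± 0.39) and overlapped. Among 23 antioxidant genes, 8 were above and 15 below 0 (median -0.06), with 2 lower and 1 higher without overlap, where 5.4% and 6.73% of all genes were so. The lower 2 were superoxide dismutases. Sod2 was at 57.4, 72.5 and 55.3 against 44.3, 45.7 and 48 CPM and Sod3 at 82.8, 112 and 114 against 63.8, 51.4 and 73.4 CPM. Cytosolic Sod1 was at 15.2, 18.2 and 19.4 against 23.1, 19.4 and 18.7 CPM. The higher one was Gpx4, which reduces lipid peroxides, at 8.51, 11.2 and 13.5 against 17.3, 13.5 and 14 CPM, the ages lying only just apart.

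Cell cycle genes were 24 below and 3 above 0 of 27 (median -0.37). Of these, 5 were lower and 2 higher without overlap, where 5.4% and 6.73% of all genes were so. Without young library 1 they were 17 below and 10 above (-0.16), and without old library 1 the median was -0.19. Rrm1 and Rrm2, the ribonucleotide reductase that supplies DNA synthesis, were both lower without overlap. Rrm1 was at 74.8, 75.1 and 73 against 50.6, 48.3 and 51.8 CPM (-0.56 ± 0.13). Rrm2 was at 30.1, 21.6 and 19.5 against 7.56, 12.9 and 5.51 CPM (-1.45 ± 0.38). Cdk1, the mitotic kinase, was at 15.6, 15.6 and 5.47 against 3.27, 4.63 and 2.14 CPM, while the proliferation marker Mki67 overlapped at 9.97, 4.66 and 8.22 against 0.579, 12.6 and 7.55 CPM. Pcna and Mcm7, of the replication machinery, were higher without overlap, Mcm7 at 18.6, 13.2 and 24.8 against 34.5, 28.5 and 26.5 CPM. Senescence and secretory genes were 10 above and 9 below 0 of 19 (median 0.01), or 13 and 6 without young library 1 (0.16). Cdkn1a, the cell cycle inhibitor p21, was at 2000.0, 897 and 556 against 1670.5, 825 and 542 CPM, highest in library 1 of both ages. Lmnb1, a nuclear lamina gene whose loss marks senescent cells, was at 11, 22 and 14.3 against 9.24, 8.08 and 9.04 CPM, lower without overlap.

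**Figure D5:**
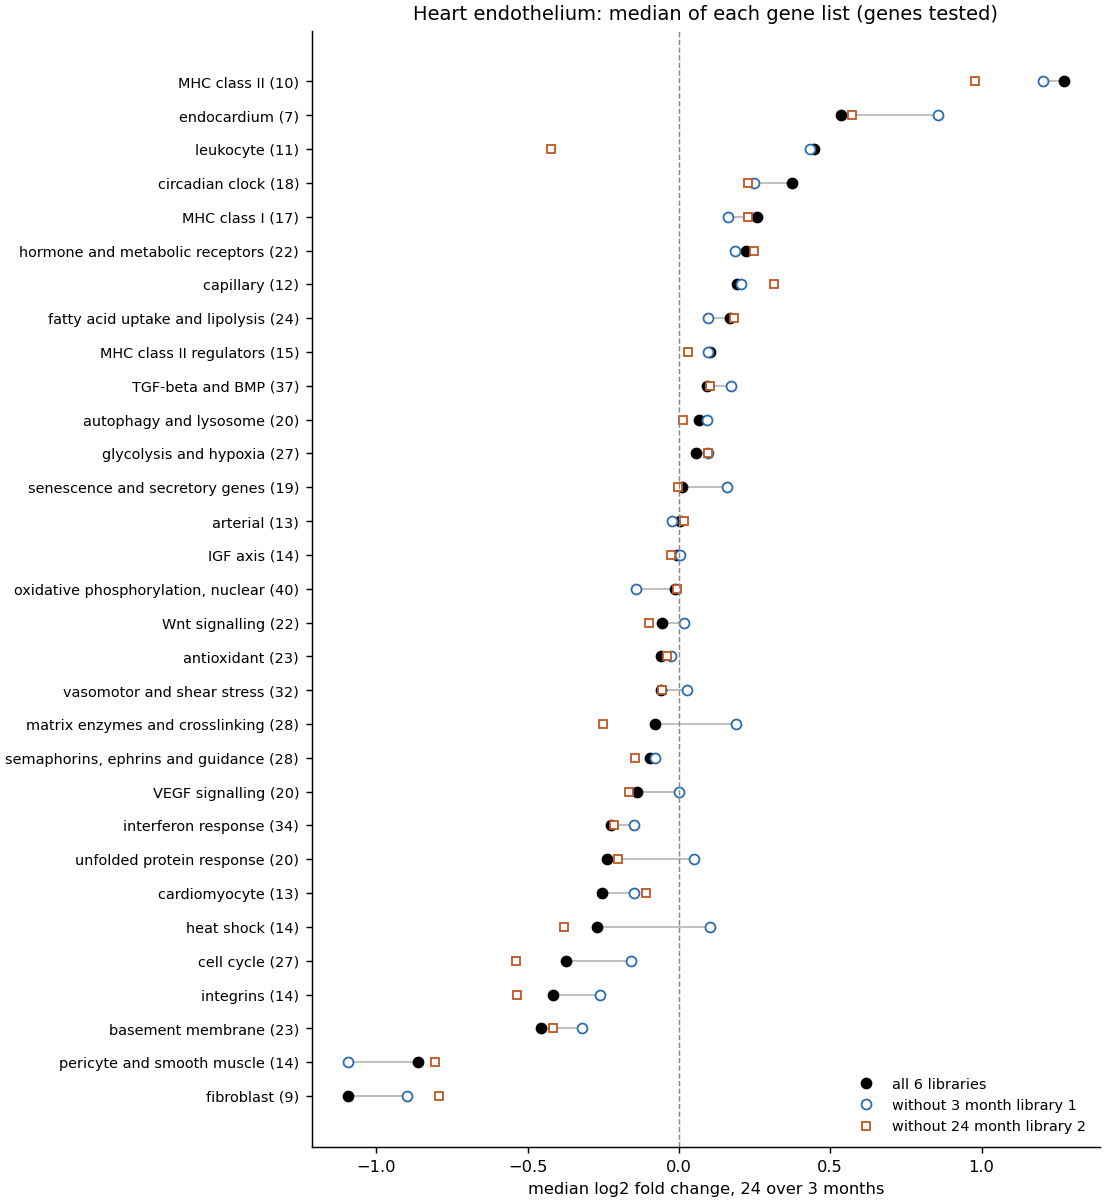
Median log2 fold change, 24 over 3 months, of most of the gene lists described (number of genes tested in brackets), with black points for all 6 heart libraries, blue circles without young library 1 and orange squares without old library 2. The class II list lies farthest to the right under all 3 settings, the mural and fibroblast lists farthest to the left, and the heat shock, unfolded protein response, matrix enzyme, vasomotor, Wnt, IGF axis and arterial medians cross 0 without young library 1.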

How the data were processed

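RNA of sorted endothelial cells was amplified and made into libraries with SMART-Seq v4 and Ovation kits, per the labels' protocols. The submitters' processing notes name TopHat2, HTSeq, GRCm38 and mm10. Versions, counting settings and strand are not given in the sources used here. The deposited values are raw read counts per gene, without normalization. Identifiers were matched to GENCODE M21 symbols (98.2% of 46078 matched).

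The 2 runs of a young library differed by little more than sampling noise (chi-square per degree of freedom 1.08, against 65.7 to 202.8 between libraries) and were summed. The age field of 1 of them reads 4 months, while its other labels place it with the young group. Genes were filtered with filterByExpr (minimum count 10), scaled by TMM and tested with edgeR 4.0.16 (quasi-likelihood, R 4.3.3), with Benjamini-Hochberg adjustment over all genes tested. DESeq2 1.42.0, a fit of all 6 groups (which also tested the differences between organs), other scalings and filters, a replicate block and leaving out each library were the alternatives. The counts of the lists without single libraries, the block over heart and brain, and the scaling and left-out libraries of the fit of all groups were chosen after seeing the data. The tests were tested on simulated data.

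Named genes were the sort genes, up to 8 genes in each direction with the lowest p among those without overlap, every called gene, up to 4 genes of lowest p in each list with its defining members, and up to 5 genes in each direction per difference between organs. Other names (further members without overlap, neighbours of a gene, and Pdk4) were chosen after their values were seen. The samples, gene lists and tests were chosen with earlier results of these data known. Some list members are counted with their lists but not reported here by name. Promoters are RefSeq windows (GRCm38.p6).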

Additional observations from a re-analysis of the deposited data

Results flagged for a closer look

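The age effect differed between heart and brain for 11 genes, and between heart and kidney for 1, each tested as an interaction in the edgeR fit of all groups with Benjamini-Hochberg adjustment. A positive difference means a more positive age effect in heart. Lepr differed by 5.39 log2 units from brain and by 5.35 from kidney, and all 3 old heart libraries lay above all 3 young ones. Gpr160 differed from brain by 1.99 and Nat8f1 by 7.40, and both are described above. Nat8f1 had 1 count in young hearts, so its fitted difference gives no bound on its size. H2-Q7 differed by -1.98 (adjusted p = 0.00877), with brain at 8.92 ± 1.17 and 57.9 ± 4.95 CPM and heart at 69.1 ± 21.2 and 113.8 ± 0.644 CPM. Map2, a microtubule-associated protein, differed by -2.98 (adjusted p = 0.0361), with heart at 21.3 ± 3.24 and 9.17 ± 3.94 CPM and brain at 2.28 ± 0.408 and 7.72 ± 2.39 CPM.

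For the other 6 genes an age group of brain was at or near 0, so the fitted difference gives no bound on its size, and in heart none of them passed. Tmigd1 differed by 6.87, Scamp5 by 7.32, Chst1 by 8.25 and Gm37052 by 9.82. Pidd1 differed by -10.0 and Wdr35 by -7.81. In heart their log2 fold changes in the same fit were -0.14 for Tmigd1, -0.56 for Scamp5, -1.10 for Chst1, 0.81 for Gm37052, -0.10 for Pidd1 and -0.16 for Wdr35. Chst1 and Gm37052 lie outside the naming rule and are given because every difference that passed is listed.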

How the results depend on the processing

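Of 141 named genes tested, 125 kept their direction under every alternative. Many were named for a low p or for ages without overlap, so this count follows in part from that choice and tests nothing. None passed an adjusted p of 0.05 in any edgeR fit of the heart libraries alone, where 747 to 1237 genes had an unadjusted p under 0.05. DESeq2 called 170 genes (1.13%), 33 of them named here, a number that the choice of names also favours. The fit of all groups called 8 (0.0436%). In simulated heart data with 15002 genes 6.78% of the edgeR calls and 37.3% of the DESeq2 calls were false. The 8 calls became 4 to 29 when a heart library was left out, fewest without young library 1 and most without young library 3. The 11 differences from brain became 278 with DESeq2, 1 in a fit of the 4 groups and 3 to 14 when a library was left out, fewest without young library 2. The difference from kidney became 195 with DESeq2, 5 in a fit of the 4 groups and 1 to 8 when a library was left out. Both Lepr differences passed in each of these. With the replicate number as a block, heart gave 0 calls (lowest adjusted p = 0.593 by edgeR, with 887 genes at an unadjusted p under 0.05), the 4 groups of heart and brain gave 1 (Lepr), and the medians of the fibroblast and Wnt lists were -0.67 and 0.041. The deviations of same-numbered libraries correlated at 0.072, 0.034 and 0.12, so the numbers were not taken as pairs, although each library correlated best with its own number. No block over all organs was fitted, because the labels and columns of the old kidney group differ on which library had a repeat run. A term for number 1 put the hormone receptor median at 0.27, and a minimum count of 50 put the Wnt median at 0.00189. Leprot was at 0.026 with upper quartile scaling and at 0.0051 with 1 run of young library 3. Leaving out each library in turn moved some list medians by more than the standard deviation of the list's level between libraries of the same age. These medians ran from 0.139 to 0.456 for hormone receptors, -0.0474 to 0.0997 for MHC class II regulators, -0.424 to 0.723 for leukocyte and -0.712 to -0.321 for basement membrane. The range was -0.328 to 0.188 for matrix enzymes, -1.27 to -0.674 for fibroblast, 0.013 to 0.25 for fatty acid genes and -0.176 to 0.0491 for guidance cues. Medians ran from -0.0991 to 0.103 for Wnt signalling, -0.0533 to 0.0602 for IGF axis, -0.125 to -0.00851 for antioxidant and -0.0749 to 0.159 for senescence genes. Genes whose ages overlapped changed sign without one or more libraries, with log2 fold changes of -0.00583 to 0.0537 for Cdh5, -0.752 to 0.479 for Cdkn1a, -0.393 to 0.144 for Edn1 and -0.155 to 0.463 for H2-Ob. Likewise they were -0.317 to 0.0228 for Kdr, -0.0704 to 0.0636 for Leprot, -0.904 to 0.405 for Mki67 and -0.179 to 0.613 for Myh6. Other such genes had -0.114 to 0.0259 for Nos3, -0.331 to 0.0552 for Nr3c1, -1.901 to 0.034 for P4ha1 and -6.62 to 0.433 for Ptprc. A last set had -0.536 to 0.376 for Rfx5, -0.0458 to 0.107 for Rfxank, -0.119 to 0.356 for Tinagl1 and -0.401 to 0.219 for Tprkb. The causes were not tested. The median standard error was 0.34 log2 units with 3 libraries at each age, which limits what could be called.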

Other observations

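Values are given as in the report, in CPM for libraries 1, 2 and 3, young against old. Genes of the circadian clock were 14 above and 4 below 0 of 18 (median 0.37, or 0.25 without young library 1 and 0.23 without old library 2), and the hour of collection is not in the labels. Per2 was at 57.4, 58.7 and 46.3 against 65.7, 97 and 78.3 CPM. Nr1d1 (Rev-erb alpha) was at 251, 395 and 369 against 426, 471 and 467 CPM. Bhlhe41 was at 1.35, 3.41 and 4.27 against 4.71, 13.7 and 7.21 CPM, and all 3 were higher without overlap. Of the 18 clock genes, 3 were higher and 0 lower without overlap, where 6.73% and 5.4% of all genes were so. Of 27 genes of glycolysis and hypoxia, 16 were above and 11 below 0 (median 0.06). Of these, 5 were higher and 2 lower without overlap, where 6.73% and 5.4% of all genes were so. Bnip3, a hypoxia-induced mitophagy receptor, was at 89.5, 74.1 and 72.6 CPM in young and 315, 125 and 124 CPM in old libraries. Ankrd37, another hypoxia target, was at 43.8, 61.5 and 56.2 against 102, 67.5 and 66.4 CPM. Both were higher without overlap, and old library 1 was the highest in both. Slc16a1, a lactate transporter, was at 40.1, 49.1 and 28.2 against 18.7, 26.8 and 17.5 CPM, lower without overlap. Autophagy and lysosome genes were 12 above and 8 below 0 of 20 (median 0.07), with 3 higher without overlap, where 6.73% of all genes were so. Without young library 1 they were 17 above and 3 below 0. Among the 3 higher genes without overlap, Gabarapl1, which coats autophagosomes, was at 135, 157 and 153 against 194, 196 and 216 CPM (0.44 ± 0.13).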
